A study of Rattus norvegicus with 24 samples.

Results

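The genes described here encode the proteins that the airway lining secretes onto its surface or carries at it: the secretoglobins Scgb1a1, Scgb3a1 and Scgb3a2, the BPI fold proteins Bpifa1 and Bpifb1, the gel-forming mucins Muc5b and Muc5ac, the membrane mucins Muc1 and Muc4, and Pigr, the polymeric immunoglobulin receptor. They were chosen by name, and all 10 were found among the 30667 genes of the table and passed the filter on low values. The samples came from a rat model of lung cancer brought about with smoky coal, and RNA of the whole lung was sequenced in 24 of them, all with that same exposure label. A sample's name joins 1 of 4 letters (A, B, C, G) to 1 of the numbers 1 to 6, so that there are 6 samples for each letter and 4 for each number. No strain, age, dose, time point or control is attached to any letter or number in the labels, so the comparisons ask only whether the genes differ between letters, and whether samples of equal number share a level.

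The conducting airways are lined by club cells, ciliated cells, goblet cells and basal cells, and in larger airways submucosal glands add to the secretion. Club cells release secretoglobins, small proteins of the airway surface liquid, while goblet cells and glands release the polymeric mucins that form the mucus gel. Membrane mucins stay anchored to the cell surface, and the polymeric immunoglobulin receptor carries dimeric IgA from the tissue to the airway lumen. Loss of club cell secretoglobin and a gain of mucin are familiar findings in airways injured by smoke.

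Sequences upstream of the genes are shown first, as a description, and whether motifs bear on how the genes moved together was not tested. RefSeq promoters of the rat assembly GRCr8, windows from 250 bases before to 50 bases after the gene's start, were matched by symbol for 8 of the 10 genes, and Muc5ac and Muc5b had no match. Motifs of 4 kinds were searched on both strands: CTCAAG, a core bound by NKX2-1, the lung and thyroid lineage factor; TGTTTAC, a forkhead core; TATAAA, the TATA box; and GCGTG, the core bound by the aryl hydrocarbon receptor, which senses polycyclic aromatic hydrocarbons. CTCAAG was present in 6 of the 8 windows (Scgb1a1, Scgb3a1, Scgb3a2, Bpifa1, Muc1 and Muc4) and in 15.8% of the 33469 rat promoters of that length. TATAAA was present in 4 of the 8 (Scgb1a1, Bpifa1, Bpifb1 and Muc1) and in 14.2% of all. GCGTG was present in 3 of the 8 (Scgb1a1, Muc1 and Muc4) and in 29.7% of all, and TGTTTAC in 0 of the 8 and 3.78% of all. The 250 bases before the start are printed below, 5′ to 3′ along the gene's strand, for Scgb1a1 (chr1:215409687-215409936, minus strand), which fell in the samples numbered 2, for Muc1 (chr2:176933500-176933749, plus strand), which rose in the same samples, and for the pair of BPI fold genes on chromosome 3, Bpifa1 (chr3:163087715-163087964, plus strand) and Bpifb1 (chr3:163132901-163133150, plus strand). Capitals mark matches to the searched motifs on either strand.
Scgb1a1: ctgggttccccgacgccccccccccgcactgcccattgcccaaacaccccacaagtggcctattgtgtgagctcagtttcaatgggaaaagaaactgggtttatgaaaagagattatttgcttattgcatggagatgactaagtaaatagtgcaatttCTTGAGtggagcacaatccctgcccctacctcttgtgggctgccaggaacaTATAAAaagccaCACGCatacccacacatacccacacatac
Muc1: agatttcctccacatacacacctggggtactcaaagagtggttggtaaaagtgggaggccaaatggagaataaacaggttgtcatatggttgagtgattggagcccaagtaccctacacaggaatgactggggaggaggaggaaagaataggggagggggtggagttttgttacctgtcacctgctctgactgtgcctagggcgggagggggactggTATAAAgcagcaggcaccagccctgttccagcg
Bpifa1: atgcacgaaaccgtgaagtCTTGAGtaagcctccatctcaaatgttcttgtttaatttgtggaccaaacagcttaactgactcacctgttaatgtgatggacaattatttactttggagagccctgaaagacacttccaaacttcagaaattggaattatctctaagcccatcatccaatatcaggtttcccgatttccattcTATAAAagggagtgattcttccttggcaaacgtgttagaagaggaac
Bpifb1: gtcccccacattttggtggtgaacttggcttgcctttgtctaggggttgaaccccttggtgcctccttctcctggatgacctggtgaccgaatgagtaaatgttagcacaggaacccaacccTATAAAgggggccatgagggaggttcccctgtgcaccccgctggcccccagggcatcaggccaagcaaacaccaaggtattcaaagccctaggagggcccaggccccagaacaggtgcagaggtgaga
The CTCAAG match of Scgb1a1 began 92 bases before the start, as its reverse complement, and the TATAAA match 41 bases before. In Bpifa1 the reverse complement of CTCAAG began 231 bases before the start and TATAAA 47 bases before. Muc1 had TATAAA 33 bases before the start, while its CTCAAG and GCGTG matches lay after the start and outside the bases printed. Bpifb1 carried only TATAAA, 128 bases before the start. These matches describe the letters of the windows and are not binding sites measured in the lung samples.

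Levels are normalized read counts per gene, which are not corrected for gene length, so levels are compared between samples and not between genes. The summed values ran from 61717516 to 66007148 per sample, and how many reads were sequenced is unknown. Markers of airway and alveolar epithelium were detected in each of the 24 samples. Cyp2f2, a club cell gene, ran from 983 to 6316 normalized counts. Sftpc, the surfactant protein of alveolar type 2 cells, ran from 603887 to 932776. Some samples also carried markers of other tissues or of inflammation. A list score, which averages the genes of a list after each gene's log2 values were centred on their mean over the 24 samples, reached 5.07 in A4 and 3.42 in B4 for 10 skeletal muscle genes, and lay between -0.92 and 0.15 in the other 22. For 11 basal and squamous cell genes it was 3.35 in A4 and at most 0.31 elsewhere. For 13 neutrophil and acute inflammation genes it was 2.52 in A2 and 1.73 in C2, and at most 0.35 in the others. Results that rest on A4 and B4, or on A2 and C2, are therefore given with and without them.

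No difference between letters passed in any of the 10 genes. In the limma F test over the letters, with Benjamini-Hochberg adjustment over all genes, 2 of 30667 genes passed an adjusted p of 0.05 (0.00652%), and none of the 10 did. Unadjusted p-values under 0.05 occurred in 3.91% of all genes and in none of the 10, where they ran from 0.147 for Muc4 to 0.974 for Scgb1a1. The letters held 6.56% of the variance of the log2 values as the median over the 10 genes, against 9.45% as the median over all genes. The shares ran from 0.975% for Scgb1a1 to 20.9% for Muc4, and those of Muc4, Muc5ac and Bpifa1 lay above the median of all genes. None of the 10 passed in any of the 6 pairs of letters, where the genes that passed made up 0.00652% of all in G against A and in G against C, 0.00326% in G against B and 0% in the other pairs.

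Scgb1a1, the club cell secretoglobin, had a median of 480364 normalized counts in A and 482494 in B. In C the median was 471741, and in G it was 477930. The range of B, 331909 to 652541, took in those of C and G and overlapped that of A, 303417 to 567760. No letter stood apart from the others beyond the spread between its samples.

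Muc4, a membrane mucin that pairs with receptor tyrosine kinases, had the smallest unadjusted p-value of the 10. In A it ranged from 25.1 to 135 normalized counts (median 42.2) and in B from 16.6 to 35.1 (median 34.2). The range was 14.9 to 68.6 in C (median 30.8) and 24.2 to 60.0 in G (median 40.5). The 4 ranges overlapped, and the highest values of A came from A2 and A4, 135 and 93.2. On the log2 scale the difference was -0.80 in B against A (SE 0.39, limma unadjusted p = 0.0498, adjusted p = 1.0) and -0.80 in C against A (SE 0.39, unadjusted p = 0.0503, adjusted p = 1.0). For Muc5ac the widest gap was G against A, -0.98 (SE 0.61, limma adjusted p = 0.71). With the sample number as a block the lowest adjusted p of the letter F test among the 10 genes was 0.565, for Muc5ac. In that fit the G against A difference of Muc5ac had an SE of 0.38 (limma unadjusted p = 0.0179, adjusted p = 0.219). Muc4 had unadjusted p = 0.0296 in B against A and 0.0299 in C against A (limma adjusted p = 0.606 and 0.749). Muc1 had unadjusted p = 0.0339 in G against A (limma adjusted p = 0.284). No pair of letters passed for any of the 10.

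**Figure D1:**
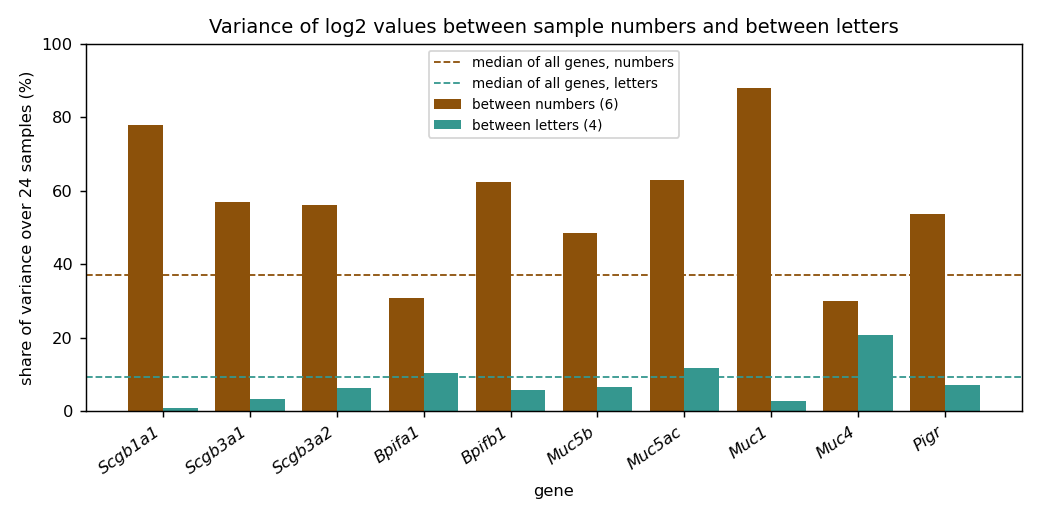
Share of the variance of log2(normalized count + 1) over 24 samples that lay between the 6 sample numbers (brown) and between the 4 letters (green) for each gene, in percent, with the medians of all 30667 genes as dashed lines. The brown bars stand above the dashed brown line for every gene except Bpifa1 and Muc4, and the tallest, for Muc1, reaches 88.0%.

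Most of the 10 genes differed between the sample numbers. In the limma F test over the numbers, with the letter in the fit, 31.5% of all genes passed and 8 of the 10 airway genes did, all except Bpifa1 (adjusted p = 0.205) and Muc4 (adjusted p = 0.197). The share of variance between numbers was 88.0% for Muc1 (adjusted p = 2.07e-06), 78.1% for Scgb1a1 (adjusted p = 0.000301), 62.9% for Muc5ac (adjusted p = 0.00190) and 62.4% for Bpifb1 (adjusted p = 0.00266) in the same limma fit. It was 56.9% for Scgb3a1, 56.1% for Scgb3a2, 53.7% for Pigr, 48.6% for Muc5b, 31.0% for Bpifa1 and 30.0% for Muc4. The median over the 10 genes was 56.5%, and that over all genes 37.1%. When each number was set against the mean of the other 5, none of the 10 passed in number 1, where 11.9% of all genes did. In the F test without A4 and B4, 6 of the 10 passed, beside 26.9% of all genes, and without A2 and C2, 5 did, beside 28.3%. The labels do not say that samples of equal number share an animal, a litter, a batch or a day, so a batch and a biological condition cannot be told apart in any difference between numbers, and the p-values measure the spread between these samples only.

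**Figure D2:**
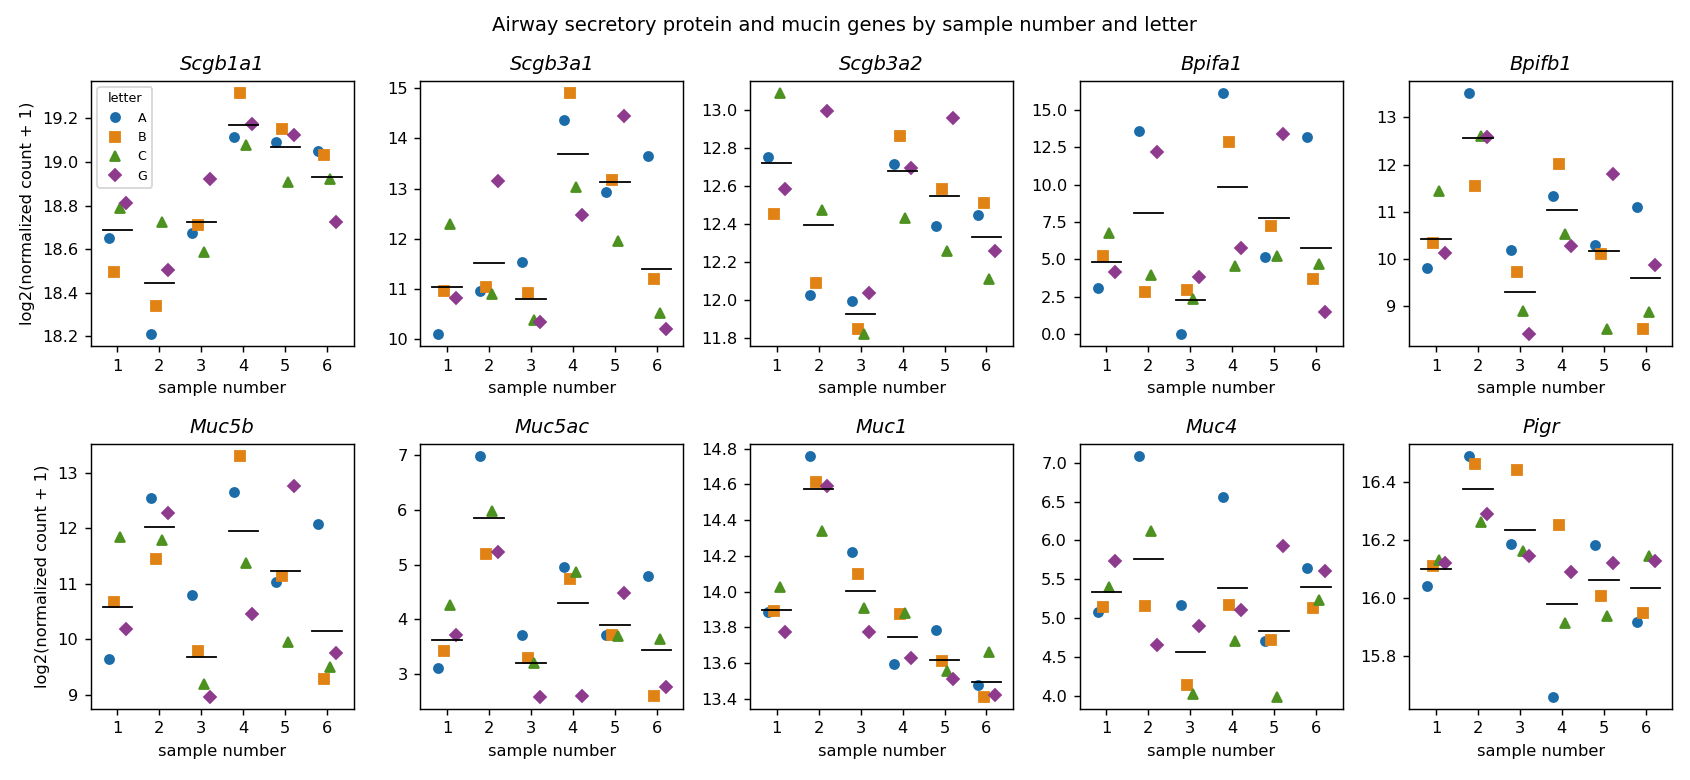
Log2(normalized count + 1) of each gene in the 24 samples, by sample number, with the letter as colour and shape and the mean of 4 samples as a bar. Muc5ac and Muc1 are highest in the 4 samples numbered 2, with no overlap with the other 20, while Scgb1a1 is highest in number 4 within each letter and Bpifa1 splits into a high and a low range.

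Among the secretoglobins, Scgb1a1 fell in the samples numbered 2 and rose in those numbered 4. It had 303417, 331909, 432920 and 372260 normalized counts in A2, B2, C2 and G2, against 369473 to 652541 in the other 20 samples. The ranges overlapped through C2 and G2, and number 2 was the lowest in 3 of 4 letters. Against the mean of the other numbers, the log2 difference was -0.47 (SE 0.08, limma adjusted p = 0.000376, a 0.722-fold level), in a comparison where 10.3% of all genes were lower and 11.5% higher. Without A2 and C2 the difference was -0.52 (adjusted p = 0.00185). In whole lung tissue, fewer cells of a type and less RNA per cell cannot be told apart, here and in every result below.

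In number 4, Scgb1a1 had 567760, 652541, 552664 and 591209 normalized counts in A4, B4, C4 and G4, the highest of each letter. The range overlapped that of number 5, which ran from 491241 to 582250. The log2 difference was 0.40 (SE 0.08, limma adjusted p = 0.00812, 1.32-fold), where 2.72% of all genes were higher and 2.02% lower. It was 0.11 after quantile normalization (adjusted p = 0.415), 0.34 without B4 (adjusted p = 0.0825) and 0.32 without A4 and B4 (adjusted p = 0.436). By mean level the numbers ran, from the lowest, 2, 1, 3, 6, 5 and 4, and the ranges of neighbours in that order overlapped in each case.

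Scgb3a1, a secretoglobin of larger airways, rose in number 4 and varied widely between samples. It had 21146, 30584, 8408 and 5657 normalized counts in A4, B4, C4 and G4, and 1099 to 22342 in the other 20 samples. Number 4 held the highest sample of A, B and C, and G5 was the highest of G. Against the other numbers it differed by 2.12 on the log2 scale (SE 0.54, limma adjusted p = 0.0275, 4.35-fold). The call was lost without A4 (adjusted p = 0.14), without B4 (adjusted p = 0.191), without C4 (adjusted p = 0.0572) and without A4 and B4, when the log2 difference was 1.25 (adjusted p = 0.699). A4 and B4 are the samples with the high skeletal muscle score, and what part the other tissue has in this result was not tested.

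Scgb3a2, a secretoglobin of distal airways, fell in number 3. It had 4084, 3690, 3622 and 4202 normalized counts in A3, B3, C3 and G3, the lowest of each letter. The other 20 samples ran from 4182 to 8725, and the ranges overlapped only because A2, at 4182, lay just under G3. The log2 difference was -0.61 (SE 0.13, limma adjusted p = 0.00912, 0.655-fold), where 2.09% of all genes were lower. Without C3 the adjusted p was 0.0598.

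**Figure D3:**
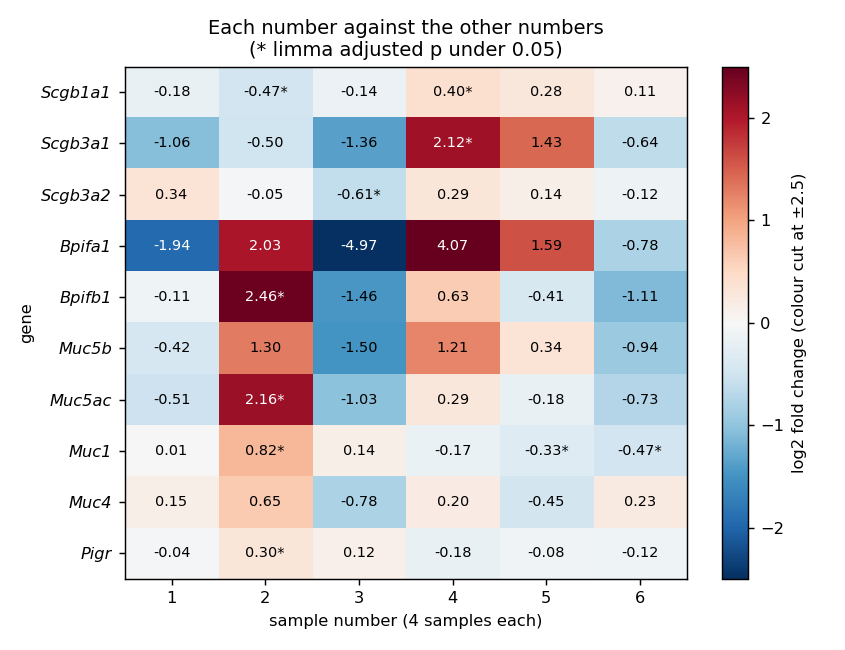
Log2 fold change of each gene in the 4 samples of a number against the mean of the other 5 numbers (limma fit, letter included), with an asterisk where the adjusted p was under 0.05. Number 2 has 5 asterisks, for Scgb1a1, Bpifb1, Muc5ac, Muc1 and Pigr, and number 1 has none.

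Of the BPI fold proteins, Bpifb1, a secreted protein of goblet cells and glands, rose in number 2. It had 11701, 2987, 6265 and 6181 normalized counts in A2, B2, C2 and G2, and 339 to 4152 in the other 20 samples. A2, C2 and G2 lay above all of those, and B2 lay under B4 and G5, which had 4152 and 3539. The difference was 2.46 on the log2 scale (SE 0.46, limma adjusted p = 0.000619, 5.50-fold). Without A2 and C2 it was 1.95 (adjusted p = 0.0699).

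Bpifa1, a secreted antimicrobial and surface-active protein of the upper airways, fell into 2 ranges that did not follow letter or number. It had 12158 normalized counts in A2, 70692 in A4, 9393 in A6, 7236 in B4, 4637 in G2 and 10652 in G5. The other 18 samples had 0.00896 (A3) to 150 (B5), with a median of 15.7, and all 6 samples of C lay among them, from 4.14 to 107. A4 and B4 carried high skeletal muscle scores, while A2, A6, G2 and G5 had scores from -0.51 to 0.15. That score does not include Casq2, Tnnc1 or Mb, muscle genes picked below for their likeness to Bpifa1. Mb had 6278 normalized counts in A4, 1100 in B4, 621 in G5, 298 in A6, 104 in G2 and 98.5 in A2. In the other 18 samples Mb reached at most 132 (C1). What part muscle tissue has in the Bpifa1 values was not tested. Neither the number F test nor any contrast of a number passed for Bpifa1. In number 4 the log2 difference was 4.07 with an SE of 2.02.

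Of the gel-forming mucins, Muc5ac, the mucin induced in goblet cells, rose in number 2. It had 126, 35.8, 62.0 and 36.4 normalized counts in A2, B2, C2 and G2, and the other 20 samples had 4.99 to 30.1. The 2 ranges did not overlap, and number 2 was the highest in 4 of 4 letters. How many of all genes separate in this way was not counted, so the separation is a description. Number 2 differed by 2.16 on the log2 scale (SE 0.36, limma adjusted p = 0.000236, 4.47-fold). Without A2 and C2, the samples with the high neutrophil score, it was 1.82 (adjusted p = 0.0308). Its level was low in every sample.

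Muc5b, the main gel-forming mucin of the healthy airway, passed the F test over the numbers (limma adjusted p = 0.0285) but no contrast of a single number. It had 2803 to 5972 normalized counts in number 2, 1407 to 10121 in number 4 and 498 to 1788 in number 3. The ranges of numbers 2 and 3 did not overlap, while that of number 4 overlapped both. How many of all genes separate between numbers 2 and 3 was not counted, so this is a description. In number 2 the log2 difference was 1.30 (SE 0.50, limma adjusted p = 0.0715). The F test was lost without B3 (adjusted p = 0.0504), C2 (0.0513), C3 (0.0587) or G3 (0.0648), with sample weights (0.0590), without A4 and B4 (0.0590) and without A2 and C2 (0.0759).

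Of the membrane mucins, Muc1, found on alveolar type 2 cells as well as on airway cells, followed the numbers most closely of the 10 genes. It had 27731, 25016, 20702 and 24637 normalized counts in A2, B2, C2 and G2, against 10897 to 19121 in the other 20 samples. There was no overlap, and number 2 was the highest in 4 of 4 letters, again a description without a count over all genes. The log2 difference was 0.82 (SE 0.07, limma adjusted p = 2.68e-07, 1.77-fold), and 0.90 without A2 and C2 (adjusted p = 4.10e-06). Muc1 fell in number 6, which had 10897 to 12967 normalized counts and was the lowest in 3 of 4 letters. There the log2 difference was -0.47 (limma adjusted p = 0.000461), where 4.02% of all genes were lower. In number 5 it was -0.33 (limma adjusted p = 0.0264, with 1.09% of all genes lower), and that call was lost without B5 (adjusted p = 0.133), C5 (0.133) or G5 (0.102).

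Muc4 showed no difference between numbers that passed. Its range was 24.2 to 135 normalized counts in number 2 and 15.3 to 35.1 in number 3, and the ranges of all 6 numbers overlapped with at least 1 other. The F test over the numbers passed in 1 of the 24 fits without a sample, that without G2 (limma adjusted p = 0.0230).

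Pigr, made by airway and alveolar epithelium, rose in number 2. It had 92148, 90442, 78712 and 80154 normalized counts in A2, B2, C2 and G2, the highest of each letter, and 51718 to 89059 in the other 20 samples. The ranges overlapped through B3, which had 89059. Its log2 difference was 0.30 (SE 0.07, limma adjusted p = 0.00639, 1.23-fold), and 0.23 without A2 (adjusted p = 0.0758) or 0.24 without A2 and C2 (adjusted p = 0.158). The lowest value came from A4, a sample with a high score for muscle and squamous genes.

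Genes of the surrounding pathways were read from lists of cell type and pathway genes. Calls of these genes in number 2 are given with and without A2 and C2, where 4.93% of all genes were higher and 4.67% lower without that pair. Those in number 4 are given with and without A4 and B4, where 0.0228% of all genes were higher and 0.0228% lower without that pair. Of 12 other club cell genes, 10 passed the F test over the numbers, beside 31.5% of all genes, and 5 were lower and 2 higher in number 2 (2 lower and 1 higher without A2 and C2). Aldh1a1 and Aldh1a7, retinaldehyde dehydrogenases, fell in number 2, with log2 differences of -0.48 and -0.46 (limma adjusted p = 8.72e-05 and 0.000116), and of -0.64 and -0.62 without A2 and C2 (adjusted p = 1.11e-05 and 3.02e-05). Por, the electron donor of cytochromes P450, fell by 0.31 (adjusted p = 0.00543), a call lost without A2 and C2 (adjusted p = 0.213). The 2 that rose were Reg3g, by 3.35 (limma adjusted p = 0.000239), and Hp, by 0.51 (adjusted p = 0.00580). Reg3g had a median of 0.00633 and a maximum of 76.3 normalized counts over the 24 samples. For Reg3g and Hp the values without A2 and C2 are not given here. The median log2 difference of the club list in number 2 was -0.09, beside 0.01 over all genes.

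Of 13 goblet cell genes, 4 were higher and 1 lower in number 2, with a median of 0.41, and 1 was higher and 1 lower without A2 and C2, with a median of 0.33. Spdef, the goblet cell transcription factor, rose by 0.41 (SE 0.08, limma adjusted p = 0.00134), and by 0.41 without A2 and C2 (adjusted p = 0.0394). Tspan8, a tetraspanin, fell by 0.37 (limma adjusted p = 0.000680), and by 0.50 without that pair (adjusted p = 8.03e-05). Creb3l1, a secretory pathway factor, rose by 0.54 (limma adjusted p = 0.000504), and the call was lost without the pair (adjusted p = 0.0862).

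Among 7 airway gland genes 4 were higher and 1 lower in number 2, with a median of 0.66. The gland score was 1.42 in A2 and 1.16 in C2, the samples with the high neutrophil score, and 0.22 in B2 and 0.07 in G2. Without A2 and C2, 1 of the 7 was higher and 0 lower, with a median of 0.34. Dmbt1, a mucosal scavenger protein, rose by 0.66 (limma adjusted p = 0.00324) and Azgp1, a zinc-binding glycoprotein, fell by 0.48 (adjusted p = 0.0166). Both calls were lost without the pair (adjusted p = 0.343 and 0.444). None of 8 other mucins passed the F test over the numbers, and of 11 other secretoglobins and BPI fold proteins 6 did.

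Of 11 ciliated cell genes, 0 were higher and 3 lower in number 2 (1 lower without A2 and C2), with a median of -0.19. Tppp3, a tubulin-binding protein, fell by 0.52 there (limma adjusted p = 0.000118), and by 0.48 without A2 and C2 (adjusted p = 0.00626). In number 4, 5 ciliated genes were higher and 0 lower, with a median of 0.49, and without A4 and B4 none passed in limma (1 of 11 had an unadjusted p under 0.05), with a median of 0.22. Rsph1, of the radial spoke of the cilium, and Foxj1, the master factor of motile cilia, both rose by 0.56 in number 4 (limma adjusted p = 0.00638 and 0.0109). Without A4 and B4 the log2 differences were 0.33 (SE 0.15) and 0.28 (SE 0.16), and neither passed. The ciliated score was 0.52 in A4, 0.52 in B4, 0.04 in C4 and 0.20 in G4, and it ran from 0.15 to 0.63 in number 5. Of 10 skeletal muscle genes 5 were higher in number 4, with a median of 2.30, and none passed there in limma without A4 and B4 (1 of 10 had an unadjusted p under 0.05). What part the other tissue in A4 and B4 has in the ciliated values was not tested.

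Of 20 transcription factors and Notch genes of the airway epithelium, 15 passed the F test over the numbers, 4 higher and 3 lower in number 2 (3 higher and 3 lower without A2 and C2). Hey1, a Notch target, fell by 0.64 there (limma adjusted p = 5.03e-05), and by 0.57 without the pair (adjusted p = 0.00620). Notch3 rose in number 1 by 0.64 (limma adjusted p = 8.91e-06), and Xbp1, a factor of the unfolded protein response, fell by 0.38 in number 6 (adjusted p = 0.000827). Nkx2-1, the lineage factor named above, rose in number 2 by 0.26 (limma adjusted p = 0.0354) without passing its F test (adjusted p = 0.0953). Without A2 and C2 it rose by 0.57 (limma adjusted p = 0.000170) and passed the F test (adjusted p = 0.000417).

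For the receptor's cargo, 6 of 10 IgA plasma cell genes passed the F test over the numbers, and Igha, the IgA heavy chain itself, did not (limma adjusted p = 0.159). The score of the list divided the samples of number 2, at -0.58 in A2 and -0.70 in C2 against 1.06 in B2 and 1.77 in G2. Mzb1 and Derl3, of the antibody-secreting cell's endoplasmic reticulum, rose in number 2 by 0.82 and 0.83 (limma adjusted p = 0.0353 and 0.000293), and by 1.69 and 1.20 without A2 and C2 (adjusted p = 0.000621 and 8.49e-05). Igkc, the kappa light chain, fell by 3.07 in number 1 (limma adjusted p = 0.00110).

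Of 12 genes of the IL-13 and type 2 response, 2 were higher and 3 lower in number 2 (1 higher and 3 lower without A2 and C2). Retnla, a resistin-like protein of alternatively activated macrophages, rose there by 3.0 (limma adjusted p = 3.16e-06), and by 1.97 without the pair (adjusted p = 0.000649). Alox15, a lipoxygenase, fell by 1.64 (limma adjusted p = 0.00327), a call lost without the pair (adjusted p = 0.0990).

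Marker genes of other cell types also differed in number 2. Of 13 neutrophil and acute inflammation genes 9 were higher and 0 lower there, with a median log2 difference of 1.09, and 2 were higher without A2 and C2, with a median of 0.13. Saa3, an acute-phase protein, rose by 3.95 (limma adjusted p = 6.86e-06), and by 2.15 without the pair (adjusted p = 0.000297). Cxcl17, a mucosal chemokine, rose by 0.64 (limma adjusted p = 3.03e-05), and by 0.57 without the pair (adjusted p = 0.000739). In A2, C2, G2 and B2 the neutrophil score was 2.52, 1.73, -0.25 and 0.35. Muc5ac had 126, 62.0, 36.4 and 35.8 normalized counts in these samples. What the neutrophil score has to do with the Muc5ac values of number 2 was not tested.

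Of 9 macrophage genes 5 were higher in number 2, and 4 without A2 and C2. Mmp12, macrophage elastase, rose by 2.81 (limma adjusted p = 2.21e-06) and Cd68, a lysosomal protein, by 1.09 (adjusted p = 1.19e-06). Without the pair they rose by 3.25 and 1.28 (limma adjusted p = 3.87e-05 and 6.33e-06). Of 8 alveolar type 1 cell genes 7 were lower, and 3 without the pair, among them Cav1 of caveolae, with log2 differences of -0.66 and -0.62 (limma adjusted p = 2.82e-06 and 1.17e-05). Of 10 alveolar type 2 cell genes 4 were higher, and 8 without the pair. What part other cell types have in the number 2 differences of the airway genes was not tested.

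The airway genes were then compared with each other over the 24 samples. Of the 45 pairs, 21 had a Pearson correlation of the log2 values that passed a two-sided permutation test with 100000 resamples and Benjamini-Hochberg adjustment over the pairs, 19 positive and 2 negative. Because Bpifa1 splits into 2 ranges, its pairs are given within those ranges below, and of the other 36 pairs 15 passed, 13 positive and 2 negative. With deviations from the number means, which leave only the spread among samples of equal number, 7 of the 36 passed, 6 of them among the 15 and with the same sign. Spearman's correlation passed in 14 of the 36.

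Over all 24 samples the 3 highest correlations were those among Bpifb1, Muc5b and Muc5ac. Bpifb1 and Muc5b had r = 0.89 and rho = 0.91, with r = 0.92 without the 2 samples farthest from the median of Bpifb1, A2 and C2, and r = 0.93 within numbers (permutation test, adjusted p = 0.000450 within numbers). Bpifb1 and Muc5ac had r = 0.87 and rho = 0.85, with r = 0.80 without A2 and C2 and r = 0.69 within numbers (adjusted p = 0.00473). Muc5b and Muc5ac had r = 0.79, rho = 0.86 and r = 0.76 within numbers (adjusted p = 0.00165). In the pooled test p was 1e-05 for each of these 3 pairs, the smallest that the resamples can give. Each of the 3 pairs thus passed over all samples and among samples of equal number.

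Scgb3a1 also varied with Muc5b and with the other secretoglobins. Scgb3a1 and Muc5b had r = 0.77, rho = 0.77, r = 0.68 without B4 and G5, and r = 0.88 within numbers (permutation test, adjusted p = 0.000675 within numbers), where only Bpifb1 with Muc5b had a higher r. Scgb3a1 and Scgb1a1 had r = 0.64 and rho = 0.60 (adjusted p = 0.00430), and r = 0.39 within numbers (adjusted p = 0.230). The difference between these 2 correlations was not tested. Scgb3a1 and Scgb3a2 had r = 0.61 and rho = 0.51, and r = 0.68 within numbers (adjusted p = 0.00836).

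Scgb1a1 correlated negatively with Muc1 and Pigr over the 24 samples. Scgb1a1 and Muc1 had r = -0.74, rho = -0.69 and r = -0.58 without A2 and B2 (permutation test, adjusted p = 0.000129 pooled), but r = -0.33 within numbers (adjusted p = 0.349). Scgb1a1 and Pigr had r = -0.61, rho = -0.52 and r = -0.40 without A2 and B2 (permutation test, adjusted p = 0.00479), and r = -0.08 within numbers. Muc1 and Pigr had r = 0.75, rho = 0.74 and r = 0.60 without A2 and B2, and r = 0.50 within numbers (permutation test, adjusted p = 0.106). These 3 relations did not pass among samples of equal number, and the differences between the pooled values and those within numbers were not tested. Muc4 passed with Bpifb1, r = 0.62 and rho = 0.52 (permutation test, adjusted p = 0.00430), which was 0.43 without A2 and C2 and 0.57 within numbers (adjusted p = 0.0354).

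**Figure D4:**
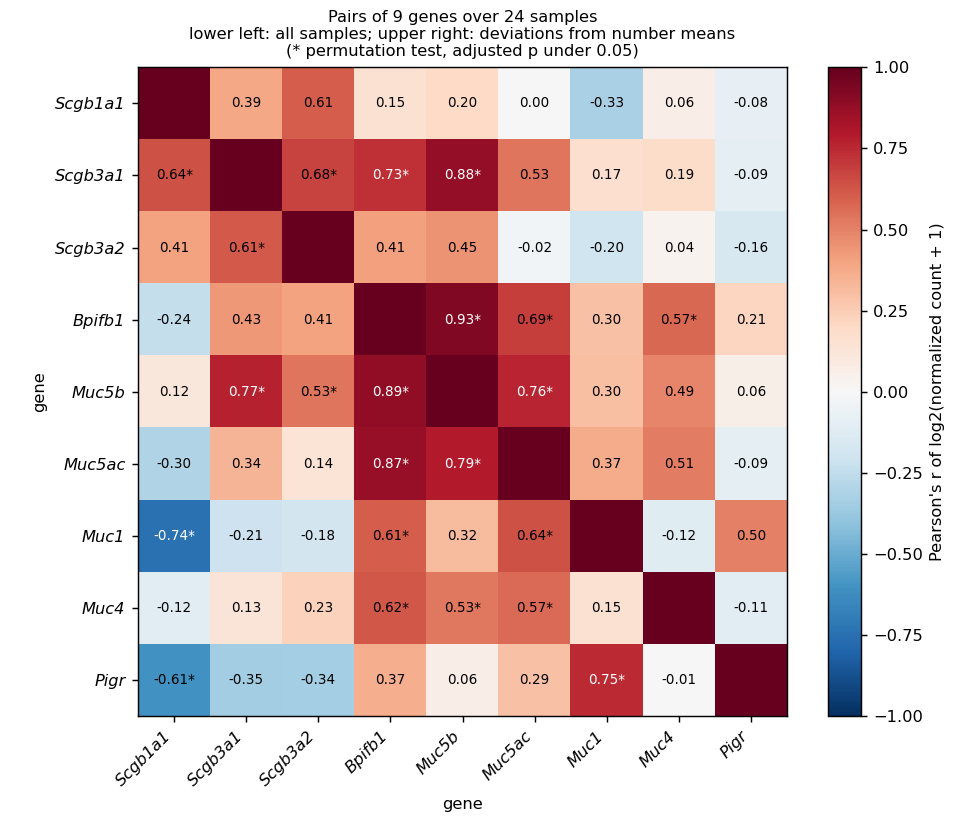
Pearson's r between 9 of the genes over 24 samples, on log2(normalized count + 1), with values over all samples at the lower left and on deviations from the number means at the upper right, and an asterisk where the permutation test's adjusted p was under 0.05. Bpifb1, Muc5b and Muc5ac form a block of positive values on both sides of the diagonal, and the negative values of Scgb1a1 with Muc1 and Pigr shrink on the upper right.

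Within the low range of Bpifa1 (18 samples), Bpifa1 went with Scgb3a1 (r = 0.61, rho = 0.60, adjusted p = 0.0337) and Scgb3a2 (r = 0.63, rho = 0.63, adjusted p = 0.0337) by a permutation test over 9 genes, and with Scgb1a1 by rho = 0.60 (adjusted p = 0.0312) but not by r = 0.54 (adjusted p = 0.0620). The test over the low range did not hold samples of equal number apart. A3, B3, C3 and G3, the lowest of each letter in Scgb3a2, all lie in it, and the part of the numbers was not tested. Within the high range (6 samples) no r passed the exact permutation test, where the lowest adjusted p was 0.588. Its rank correlation with Muc4 was 0.94 in the high range (exact permutation p = 0.0167, adjusted p = 0.150). The high values of Bpifa1 came from 6 samples, too few to tell these relations apart.

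The genes whose pattern was most like each of the 10 were ranked by Pearson's r of log2 values over the 24 samples, among 15914 genes with a mean of at least 100, as a description. For Scgb1a1 they were Fam183b (r = 0.92), Ephx1 (0.91), a microsomal epoxide hydrolase, and Kndc1 (0.91). Scgb3a1 was most like Iqca (r = 0.92), Fam92b (0.92) and Sntn (0.90), the last a protein of the cilium tip. Scgb3a2 was most like Lypd2 (r = 0.88), Ccdc89 (0.85) and Tmem53 (0.82). Ephx1, like Scgb1a1, was lowest in A2 and highest in B4, and Lypd2, like Scgb3a2, was lowest in C3.

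Muc5b was most like Clca1 (r = 0.95), a secreted goblet cell protein, Tmc5 (0.93) and Agr2 (0.91), a disulfide isomerase needed for mucin assembly. Clca1 ran from 22.1 normalized counts in B6 to 5096 in A4, and its r with Muc5b was 0.95 within numbers and 0.94 without A4 and B4. Bpifb1 was most like Muc5b, Tmc5 (r = 0.86) and Lpcat4 (0.84), and Muc5ac most like Bpifb1, Gm7676 (0.85) and Plekhg6 (0.84). Tmc5 and Agr2 were both lowest in C3.

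Muc1 was most like Sel1l3 (r = 0.96), Ctsh (0.94), a lysosomal protease that processes surfactant protein in type 2 cells, and Tmem54 (0.94). Pigr was most like Ttc7 (r = 0.88), Sftpa1 (0.87), surfactant protein A, and Rnf149 (0.85), each of which was highest in A2 and lowest in A4, as Pigr was. Within numbers the r of Pigr with Sftpa1 was 0.84. Muc4 was most like Gjb2 (r = 0.79), a gap junction protein, Ifi44 (0.77) and Bzw2 (0.77), all 3 highest in A2.

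Over the same 24 samples Bpifa1 was most like 3 muscle genes, Casq2, the calsequestrin of cardiac muscle, Tnnc1, the troponin C of cardiac and slow muscle, and Mb, myoglobin. Within its high range the r of Bpifa1 with Casq2 was 0.81, and within its low range 0.80. Casq2 had 132 (A2) to 1926 (A4) normalized counts over the 6 samples of the high range and 21.3 (G6) to 246 (C1) over the other 18. For Mb these r were 0.77 and 0.77, and for Tnnc1 0.65 and 0.64. The 3 genes were picked for their r over all these samples, so the values within the ranges are a description.

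**Figure D5:**
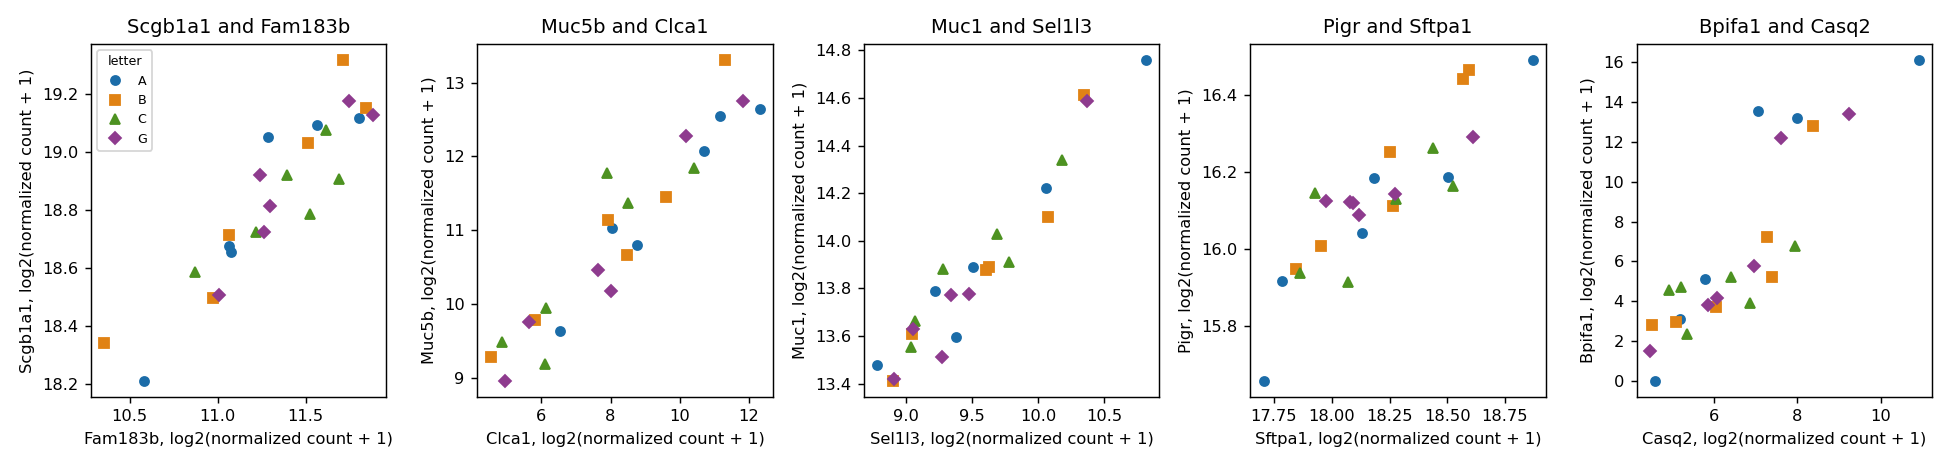
Log2(normalized count + 1) of 5 of the genes (vertical) against a gene of like pattern (horizontal) in 24 samples, with the letter as colour and shape. Points of all 4 letters lie along each rising cloud, Muc5b with Clca1 over the widest span, and Bpifa1 shows its gap between the 6 high and 18 low samples.

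Scores of the lists were set against the airway genes in 160 correlations (10 genes by 16 lists), each with a two-sided permutation test and adjustment over the 160. Not every relation that passed is named. The goblet cell score went with Muc5b (r = 0.89, rho = 0.91, 0.83 within numbers), Bpifb1 (r = 0.87, rho = 0.90, 0.82 within numbers) and Muc5ac (r = 0.75, rho = 0.83, 0.67 within numbers), each with an adjusted p of 0.00533 within numbers. The ciliated cell score went with Scgb1a1 (r = 0.76, rho = 0.77, 0.68 within numbers), Scgb3a1 (r = 0.84, rho = 0.78, 0.68 within numbers) and Scgb3a2 (r = 0.71, rho = 0.73, 0.79 within numbers), with adjusted p within numbers of 0.0375, 0.0303 and 0.0116 by permutation. Scgb3a1 also went with the goblet score (r = 0.61, rho = 0.62, 0.72 within numbers, permutation adjusted p = 0.0117 within numbers). No member of these lists is among the 10 genes.

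The score of the other club cell genes did not pass with Scgb1a1 (r = 0.28, rho = 0.34, permutation adjusted p = 0.340). It did with Muc5b (r = 0.75, rho = 0.72, 0.65 within numbers), Scgb3a1 (r = 0.69, rho = 0.63, 0.60 within numbers), Bpifb1 (r = 0.66, rho = 0.61, 0.69 within numbers) and Muc5ac (r = 0.56, rho = 0.60, 0.53 within numbers), with pooled permutation adjusted p of 0.000686, 0.00254, 0.00348 and 0.0185. Within numbers Bpifb1 alone of these 4 passed (permutation adjusted p = 0.0184). No pooled value is given for Bpifa1, whose levels split into 2 ranges. The club score weighs each gene of its list alike, also genes of very low level. Among these are Reg3g, with a median of 0.00633 normalized counts, and Cbr2, with 2.52. What part such genes have in the correlations of this score, the one with Scgb1a1 included, was not tested.

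Muc1 went with the alveolar type 2 score (r = 0.76, rho = 0.84, 0.72 without the 2 farthest samples and 0.72 within numbers, permutation adjusted p = 0.0117 within numbers). Pigr did so over all samples (r = 0.75, rho = 0.75), with 0.61 within numbers (permutation adjusted p = 0.152). Over all samples Muc1 also went with the macrophage score (r = 0.78, rho = 0.72). It went against the alveolar type 1 score (r = -0.76, rho = -0.57). Within numbers these were 0.26 and -0.14. The type 1 score also went against Muc5ac (r = -0.77, rho = -0.58) and Bpifb1 (r = -0.70, rho = -0.52). Within numbers these were -0.59 and -0.45. None of these relations of the macrophage and type 1 scores passed within numbers. Muc5ac and the neutrophil score had r = 0.62 (permutation adjusted p = 0.0116), but rho was 0.28 and r was 0.06 without the 2 farthest samples, so that relation rests on those 2 samples. The skeletal muscle score went with Muc5b (r = 0.54, rho = 0.62, 0.49 without the 2 farthest samples). With Scgb3a1 its r was 0.56, but rho was 0.25 and r was 0.15 without the 2 farthest. Neither relation of the muscle score passed within numbers (permutation adjusted p = 0.380 and 0.334).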

How the data were processed

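Messenger RNA of rat lung tissue was sequenced on an Illumina platform, per the labels' protocols, and STAR and the build GRCm38, a mouse assembly, are listed in the submitters' processing notes. The authors deposited 1 table of signal values with gene symbols, 30667 genes by 24 samples; from their form they are normalized read counts, and the normalization, counting and strand handling are not given in the sources used here, so genes with close paralogs or overlapping antisense genes are uncertain. Sequencing depth per sample is unknown, so no counting interval is given. The genes described and the lists were chosen with earlier results of these data known.

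Tests used limma 3.58.1 (R 4.3.3, limma-trend) on log2(value + 1), which understates changes of low genes, keeping genes that averaged at least 0.5, which all did. The first fit had the letter, the second letter and number, and each number was set against the mean of the other 5. P-values are two-sided, adjusted by Benjamini-Hochberg over 30667 genes, with a threshold of 0.05. Nothing in the labels says that samples are separate animals. Scripts were tested on simulated data. Correlations used scipy 1.17.1 with 100000 permutations, kept within numbers for deviations. Named genes are the 10 chosen, the 3 most like each of them by r (mean of at least 100), and genes from the lists. The rule planned for the lists was the most abundant gene and up to 3 by p among those past an F test. It was not followed throughout. Postn, Ighm, Lyz1 and Mrc1 meet it and are not described above, and Igha is described without passing. Cyp2f2, Reg3g, Hp and Cbr2 of the club cell list are named beyond the rule.

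To check pairing by number, samples' deviations from their letter mean were correlated across the 21922 genes averaging at least 10. All 6 pairs were over 0.1 in B against A (0.17 to 0.59) and C against B (0.13 to 0.60), a pairing seen in the data only. In the other 4 pairs of letters at least 1 was not.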

Additional observations from a re-analysis of the deposited data

Results flagged for a closer look

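Within each letter, the highest or lowest of 6 samples was compared with its nearest neighbour, and 11 of 40 groups of gene and letter held a sample far from the rest, where chance gives about 2.0. All 11 were the highest of their group. The chance value assumes symmetric values, whereas these lie on the linear scale, and on the log2 scale used for the tests 2 of the 40 groups held such a sample, the number chance gives. Of the 11, 5 were numbered 2, 4 were numbered 4 and 3 concerned Bpifa1.

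Among the secretoglobins, Scgb3a1 had 30584 normalized counts in B4, with 9203 in the next sample of B, and 22342 in G5, with 9062 in the next of G. Bpifa1 had 70692 in A4 (next 12158), 7236 in B4 (next 150) and 107 in C1 (next 36.7). Bpifb1 had 11701 in A2, with 2579 in the next sample of A. Muc5b had 10121 in B4 (next 2803). Muc5ac had 126 in A2 (next 30.1) and 62.0 in C2 (next 28.0).

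The pair that also stood apart on the log2 scale were Muc1 in G2, at 24637 with 14017 in the next sample of G, and Pigr in G2, at 80154 with 72436 in the next. G2 had a neutrophil score of -0.25, inside the span of the other samples, and what the score has to do with these levels was not tested.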

How the results depend on the processing

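For the airway genes no result changed direction. Of 1190 values recomputed for them, 1162 kept their side of the threshold or, for counts of genes passing, stayed near the main count. A fall from 8 to 6 genes in the number F test without A4 and B4 was taken as near. The 1190 include 320 letter F tests, all far above the threshold (limma, lowest adjusted p = 0.565). The calls that were lost were Scgb3a1, Scgb1a1, Scgb3a2, Bpifb1, Muc1 and Pigr in single numbers and the F tests of Scgb3a1, Muc5b, Muc5ac and Pigr, under the settings given beside them or here: without A4 and B4 the number F test of Scgb3a1 had an adjusted p of 0.0746, without A2 and C2 that of Muc5ac 0.0545 and that of Pigr 0.114, and that of Pigr was 0.0714 without A2 and 0.0523 without B2 (limma). Leaving out A2 and C2 was chosen after seeing the data. None of 320 letter tests of the 10 genes passed under any alternative run.

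Counts over all genes moved more. The letter F test gave 2 genes, 1 after quantile normalization, 75th percentile scaling or leaving out either pair of samples, 12 with the replicate block, and 1 to 2 without single samples. With the block, G against A gave 391, G against B 2 and G against C 11, in place of 2, 1 and 2, in contrasts where the numbers were not taken as pairing. B against A and C against B gave 0 with the block as without it, and no call on the airway genes changed. Samples correlated best with their own number in 4, 5, 3, 5, 5 and 4 of 6 cases over B-A, C-A, G-A, C-B, G-B and G-C. G against A gave 5 from its 12 samples, 1 without either pair and 1 to 4 without single samples. G against B gave 3 with sample weights and 1 to 2 without single samples, and G against C 1 from its 12 samples and 1 to 2 without single samples.

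Number 2 gave 6691 genes, 4271 with weights, 2943 without A2 and C2 and 3542 (without A2) to 7111. Number 4 gave 1454, 14 without A4 and B4 and 383 (without B4) to 1976, with 463 without A4. Number 5 gave 604, 1814 with weights, 1196 without A2 and C2 and 2 (without B5) to 891, with 9 without C5, 68 without G5 and 251 without A5. Number 6 gave 2494, 4097 with weights and 747 (without B6) to 2999, with 837 without A6 and 1324 without C6. Number 1 gave 3638 and 1917 (without A1) to 4100, with 2147 without B1 and 2380 without C1. Number 3 gave 1527 and 543 (without C3) to 2049, with 789 without B3 and 914 without A3. The number F test gave 9653 and 8528 to 10210. Of the correlations, 10 in place of 21 passed as deviations from the number means, and 19 to 23 without single samples. The causes were not tested. Precision is limited by 4 samples per number and by unknown depth.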
